A study of Danio rerio with 17 samples.

Results

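The 31 zebrafish genes described here are the TNF superfamily ligands, the TNF receptor superfamily and the TRAF genes, out of 35117 gene identifiers in the deposited tables. They were chosen by symbol alone: every identifier whose symbol begins with tnfrsf, tnfsf or traf followed by a digit from 1 to 7, and the genes tnfa and tnfb. This gives 10 ligand genes, 10 receptor genes, 9 TRAF genes, and 2 genes (traf3ip1 and traf3ip2l) that carry the TRAF stem in their symbol but encode proteins named as TRAF-interacting.

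TNF ligands are trimeric proteins that sit on the surface of one cell, or are shed from it, and cluster receptors on another. Most receptors then recruit TRAF adaptors, which are largely ubiquitin ligases or scaffolds, and through them switch on NF-kappaB and stress kinases. Some receptors recruit death adaptors instead, and a few are decoys that only bind ligand. In mammals these pairs govern inflammation, costimulation of T cells, survival of B cells and maturation of bone-resorbing and antigen-presenting cells. In skin they are known from traffic between keratinocytes and resident immune cells.

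Fluorescent cells of adult zebrafish epidermis were hand-picked, amplified by SMART-seq2 and sequenced as 17 libraries of 5 groups. MLCs (4 libraries) and cLCs (4) both came from fish with the transgenes hsp70:mCherry-T2a-CreERT2, a heat shock promoter driving an inducible Cre, and mpeg1:loxP-DsRedx-loxP-GFP, the promoter of a macrophage gene driving a reporter that changes color after recombination. Keratinocytes (3) came from Tg(krt4:lyn-GFP), neutrophils (3) from Tg(lyz:GFP) and T cells (3) from Tg(lck:DsRedx) fish. The sources used here do not spell out MLC and cLC, nor give the fish's age beyond adult or the number of cells per library. In such picked samples fewer expressing cells and less RNA per cell cannot be told apart. The series text says that the replicates of each cell type came from independent experiments.

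Levels are CPM, counts divided by the TMM-scaled library size and put on the usual CPM scale, and are given in replicate order with the mean and SD between libraries (n = 4 for MLCs and cLCs, n = 3 for the others). Total counts were 5837662 to 24596883 per library. The number of genes with counts varied more, from 4484 to 16921, and the 4 libraries under 6000 were cLCs replicates 3 (5662) and 4 (4484) and neutrophils replicates 2 (5071) and 3 (4556). The reporter genes were read in their own groups, with krt4 at 9460 to 48400 CPM in keratinocytes, lyz at 1110 to 2260 CPM in neutrophils, lck at 581 to 685 CPM in T cells, and mpeg1.1 at 857 to 1620 CPM in MLCs and 2990 to 9840 CPM in cLCs. Of the 13 macrophage markers, with mpeg1.1 among them, 11, 4, 3 and 6 had counts in MLCs replicates 1 to 4. In MLCs the markers summed to 2280 to 4960 CPM. In cLCs the sum was 7550 to 42200 CPM and in keratinocytes 1.99 to 18.2 CPM. The sum was 3100 to 8030 CPM in neutrophils, where mpeg1.1, csf1ra, marco, mfap4, c1qa and c1qc were at 0 in every library. In T cells it was 1700 to 2610 CPM, with counts for 12, 2 and 3 of the markers in replicates 1 to 3. Of these markers the leukocyte gene ptprc was at 0 to 0.397 CPM in MLCs. It was at 270 to 823 CPM in cLCs, 513 to 673 CPM in neutrophils and 738 to 766 CPM in T cells. Both csf1ra and csf1rb were at 0 in every MLC library. Of the 12 keratinocyte markers 11, 7, 6 and 7 had counts in MLCs replicates 1 to 4. They summed to 3160 to 7010 CPM in MLCs, against 33400 to 112000 CPM in keratinocytes and 4.38 to 128 CPM in cLCs.

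The number of the 31 genes with counts varied between libraries. It was 12 to 25 in MLCs, 13 to 18 in keratinocytes, 15 to 22 in T cells and 7 to 15 in neutrophils. In cLCs it was 27, 28, 16 and 4, so that cLCs replicate 4 had counts for tnfa, tnfb, tnfsf10 and traf6 and for none of the 10 receptor genes. In neutrophils 16 of the 31 genes had 0 counts in every library, against 3 in MLCs, 1 in cLCs, 7 in keratinocytes and 8 in T cells. Of all genes, 11404, 5071 and 4556 had counts in the neutrophil libraries and 4484 to 16200 in cLCs. The numbers were 8972 to 15684 in MLCs, 8564 to 10683 in keratinocytes and 9418 to 16921 in T cells. The share of all genes at 0 in each group was not counted. The gene tnfsf13 (the ligand APRIL in mammals) had 0 counts in all 17 libraries. Together with tnfrsf19, tnfsf10l3 and tnfsf10l4, which reached at most 3.09 CPM, it did not pass the filter on low counts, and the other 27 genes were tested.

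**Figure D1:**
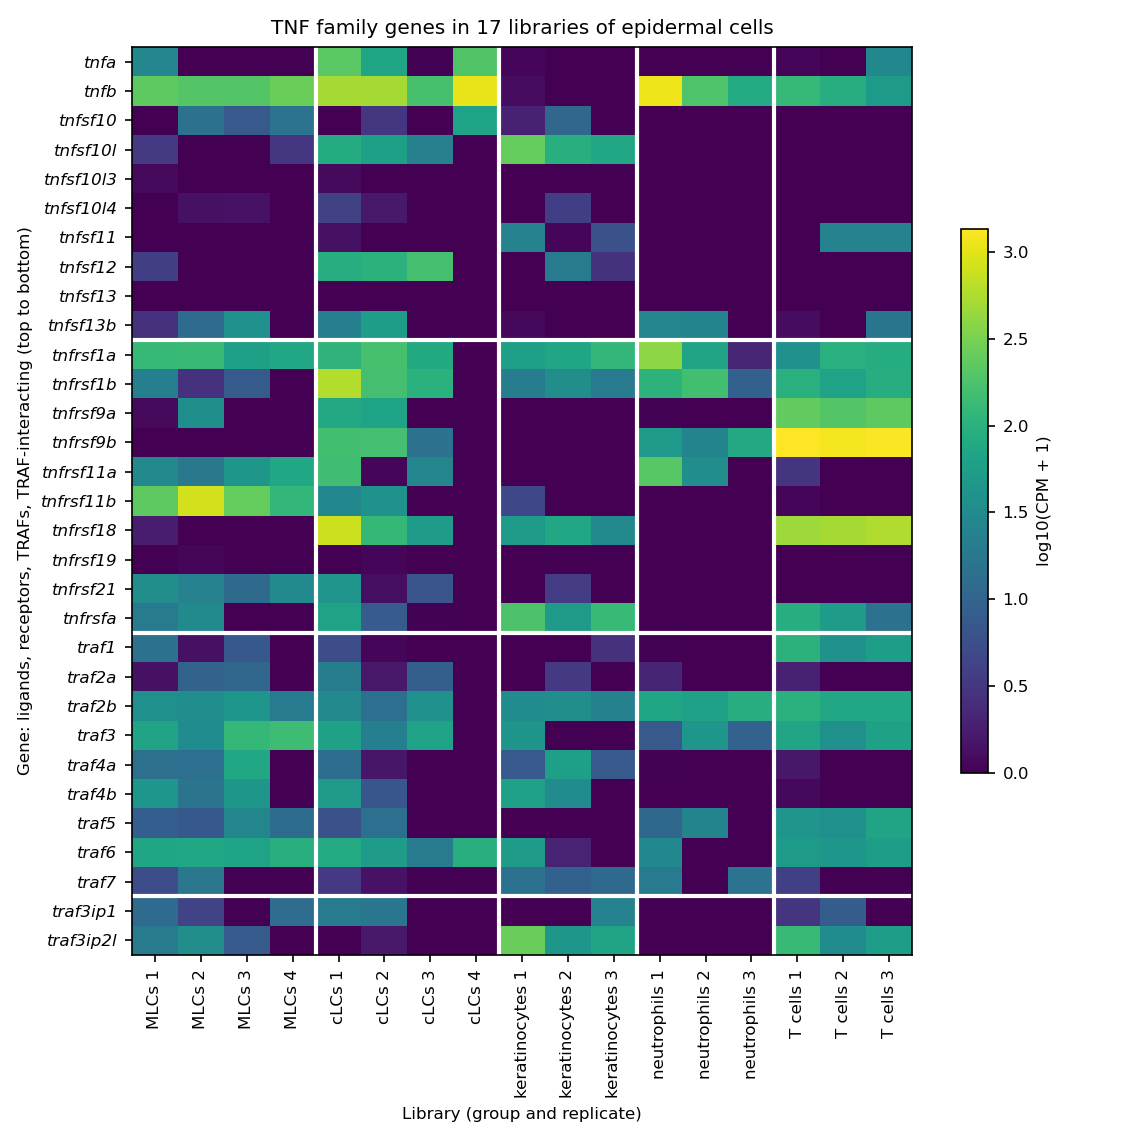
Level of each of the 31 genes (rows, in blocks of ligands, receptors, TRAFs and TRAF-interacting genes) in each of the 17 libraries (columns), as log10(CPM + 1) on the color scale. The brightest entries include tnfb in MLCs, cLCs, neutrophils and T cells, tnfrsf9b and tnfrsf18 in T cells, and tnfrsf11b in MLCs, and the column of cLCs replicate 4 is at 0 for every receptor.

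Among the ligands, tnfb (ENSDARG00000013598), one of a pair of zebrafish genes for the inflammatory cytokine TNF, was read in every library of the mpeg1 groups, neutrophils and T cells and was nearly absent from keratinocytes. It stood at 226, 194, 196 and 269 CPM in MLCs, and at 515, 513, 167 and 1072 CPM in cLCs. In neutrophils it was at 1133, 185 and 82.4 CPM, and in T cells at 125, 88.0 and 49.8 CPM. Keratinocytes had 5 reads in replicate 1 and 0 in the other two, a mean of 0.0850 ± 0.147 CPM, so that all 14 libraries of the other groups lay above all 3 of keratinocytes. Folds are ratios of mean CPM, and adjusted p values are from edgeR's quasi-likelihood test. The mean of tnfb was 2604-fold higher in MLCs than in keratinocytes (221 ± 35.0 CPM, edgeR adjusted p = 0.00155). It was 6666-fold higher in cLCs (567 ± 374 CPM, adjusted p = 0.000695). It was 5491-fold higher in neutrophils (467 ± 579 CPM; adjusted p = 0.000742) and 1032-fold higher in T cells (87.7 ± 37.8 CPM; adjusted p = 0.0034). These 4 calls were kept whichever library was left out (edgeR adjusted p of 0.000372 to 0.0235). Between the groups other than keratinocytes the ranges of tnfb overlapped, except that T cells lay below MLCs (2.52-fold, edgeR adjusted p = 0.801) and below cLCs (6.46-fold, adjusted p = 0.35).

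The other TNF gene, tnfa (ENSDARG00000009511), was patchy. It stood at 211, 70.2, 0.0521 and 192 CPM in cLCs, at 26.8, 0, 0 and 0 CPM in MLCs, and at 0.101, 0 and 28.2 CPM in T cells. In keratinocytes it had 0.102, 0 and 0 CPM, and in neutrophils 0 counts in every library. Every cLC library was thus above every neutrophil library, though cLCs replicate 3 by only 1 read, and cLCs and MLCs overlapped because of cLCs replicate 3. The difference among the 5 groups missed the threshold (edgeR adjusted p = 0.0535; 118 ± 101 CPM in cLCs), and the call for cLCs against neutrophils was not made (adjusted p = 0.156). With 1 library left out, the adjusted p among the groups ranged from 0.0154 to 0.108.

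A TRAIL-like ligand gene, tnfsf10l (ENSDARG00000004196), was on the keratinocyte side. TRAIL in mammals binds death receptors. The gene stood at 244, 90.7 and 71.6 CPM in keratinocytes, at 82.6, 58.9, 22.3 and 0 CPM in cLCs, at 2.38, 0, 0 and 2.13 CPM in MLCs, and had 0 counts in every neutrophil and T cell library. Keratinocytes lay above MLCs, neutrophils and T cells with no overlap, and overlapped cLCs. It was at least 2879-fold higher in keratinocytes than in neutrophils (edgeR adjusted p = 0.0377) and at least 2743-fold higher than in T cells (adjusted p = 0.0466), where the bounds use 3 counts over the group at 0 and cover counting error only. Both calls were lost without cLCs replicate 1 or 2, any keratinocyte library, or any library of the group at 0, and the second also without MLCs replicate 1 or 4, with adjusted p up to 0.111 and 0.172. Without the 4 libraries under 6000 detected genes the first had an adjusted p of 0.112. The cLC libraries with tnfsf10l had 123, 128 and 4.38 CPM of summed keratinocyte markers, and the part of keratinocyte RNA in their tnfsf10l was not tested.

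The ligand gene tnfsf12 (TWEAK in mammals) stood at 87.4, 102, 162 and 0 CPM in cLCs and at most 18.2 CPM in any other library, and had 0 counts in neutrophils and T cells. It differed among the 5 groups (edgeR adjusted p = 0.0288), a call lost without cLCs replicate 1, 2 or 3 (adjusted p up to 0.0638), and no pair of groups was called. The B cell survival factor gene tnfsf13b (BAFF in mammals) ranged from 0 to 56.8 CPM in cLCs, 0 to 36.7 in MLCs, 0 to 26.3 in neutrophils and 0 to 15.6 in T cells, with at most 0.153 CPM in keratinocytes. For tnfsf10 (TRAIL in mammals) the highest library was cLCs replicate 4 at 64.4 CPM, and MLCs had 0, 14.3, 6.49 and 14.7 CPM.

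**Figure D2:**
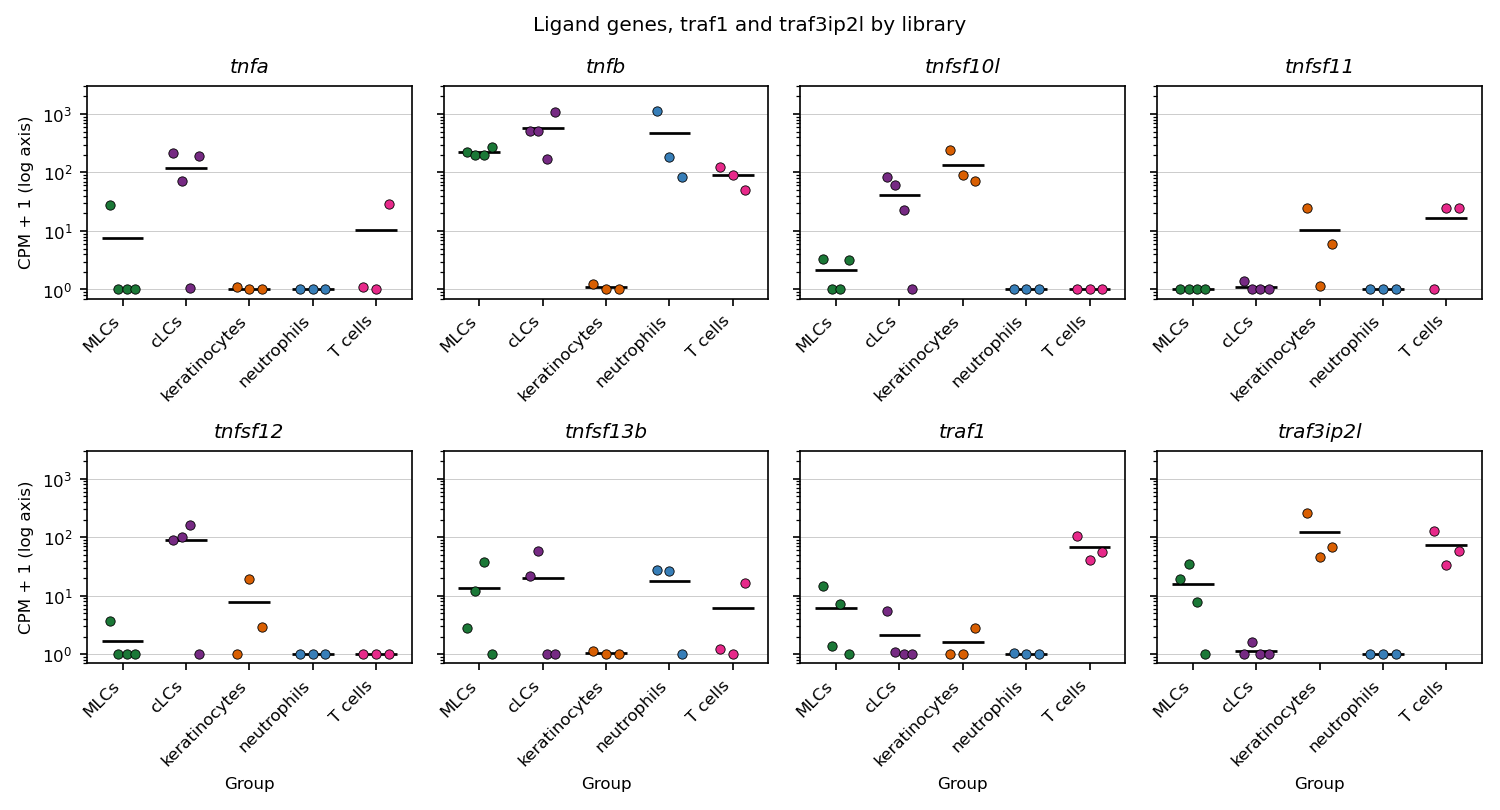
Levels of 6 ligand genes, traf1 and traf3ip2l in each group, as CPM + 1 on a log axis; each point is a library and each black line the group mean plus 1. For tnfb the 3 keratinocyte points lie at the bottom below all others, and for traf1 the T cell points lie above all others. The top point of tnfsf10l and that of traf3ip2l are keratinocyte libraries. Keratinocytes overlap cLCs for tnfsf10l and T cells for traf3ip2l.

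Among the receptors, tnfrsf9b (ENSDARG00000090728) separated the groups most sharply, with the smallest p of the 27 tested genes for any difference among the 5 groups (edgeR adjusted p = 0.000391). TNFRSF9 in mammals is a costimulatory receptor of activated T cells. The gene stood at 1356, 1225 and 1285 CPM in T cells, a mean of 1288 ± 65.8 CPM. In cLCs it was at 152, 157, 13.6 and 0 CPM, in neutrophils at 49.2, 25.2 and 76.2 CPM, and it had 0 counts in all 4 MLC and all 3 keratinocyte libraries. T cells lay above every other library, and every neutrophil library lay above MLCs and keratinocytes.

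In edgeR's test tnfrsf9b was higher than in MLCs, where it had 0 counts, in T cells (at least 21840-fold, adjusted p = 0.0103), in neutrophils (at least 850.5-fold, adjusted p = 0.0143) and in cLCs (at least 1368-fold, adjusted p = 0.0362). It was also higher than in keratinocytes, again at 0, in T cells (at least 16040-fold, adjusted p = 0.00521), in neutrophils (at least 624.9-fold, adjusted p = 0.0148) and in cLCs (at least 1005-fold, adjusted p = 0.0135). The call for cLCs against MLCs was lost without any of the 4 MLC libraries or without cLCs replicate 1 (adjusted p up to 0.179), and the other 5 were kept whichever library was left out (adjusted p up to 0.0498). The difference of 25.7-fold between T cells and neutrophils was not called (adjusted p = 0.228), nor that of 15.96-fold between T cells and cLCs (adjusted p = 0.314), although these groups did not overlap.

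The paralog tnfrsf9a (ENSDARG00000060498) was also highest in T cells, at 236, 199 and 224 CPM (220 ± 19.2 CPM). It stood at 75.8, 64.4, 0 and 0 CPM in cLCs, at 0.199, 35.0, 0 and 0 CPM in MLCs, at 0.0421, 0 and 0 CPM in neutrophils, and had 0 counts in keratinocytes. T cells lay above all 14 other libraries. The gene differed among the 5 groups (edgeR adjusted p = 0.0275), a call lost without T cells replicate 1 (adjusted p = 0.0523), and no pair was called, with adjusted p = 0.0735 for T cells against keratinocytes. How reads shared by the 2 paralogs were counted is not given in the sources used here. On the TPM scale, which corrects for length, tnfrsf9b was at 1860 to 1950 TPM and tnfrsf9a at 332 to 370 TPM in T cells.

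The receptor gene tnfrsf18 (ENSDARG00000076800) is known in mammals as GITR, a costimulatory receptor of activated and regulatory T cells. It stood at 469, 507 and 575 CPM in T cells, at 793, 121, 51.3 and 0 CPM in cLCs, and at 49.8, 73.9 and 30.0 CPM in keratinocytes. MLCs had 0.794, 0, 0 and 0 CPM and neutrophils 0 counts in every library. T cells lay above keratinocytes, MLCs and neutrophils without overlap, and cLCs, led by replicate 1, overlapped T cells and keratinocytes.

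By mean CPM, tnfrsf18 was 2604-fold higher in T cells than in MLCs (517 ± 53.7 against 0.199 ± 0.397 CPM, edgeR adjusted p = 0.0317). Against neutrophils it was at least 5136-fold higher in cLCs (241.5 ± 371.2 CPM; adjusted p = 0.0285) and at least 1090-fold higher in keratinocytes (51.24 ± 21.97 CPM; adjusted p = 0.0212). For T cells against neutrophils, with the larger difference of means, the adjusted p was 0.0763. The call against MLCs was lost without MLCs replicates 2, 3 or 4 or any T cell library (adjusted p up to 0.0982). The call in keratinocytes was lost without any neutrophil library (adjusted p up to 0.0698), and that in cLCs without any neutrophil library or cLCs replicates 1 or 2 (adjusted p up to 0.124). Without the 4 libraries under 6000 detected genes, the adjusted p for cLCs against neutrophils was 0.164.

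Since tnfrsf9a, tnfrsf9b and tnfrsf18 had their highest means in T cells, the T cell markers in cLCs stand beside them. Neutrophils also had tnfrsf9b at 25.2 to 76.2 CPM, and keratinocytes had tnfrsf18 at 30.0 to 73.9 CPM. The part of T cell RNA in the cLC values was not tested. Of the 9 matched markers 5, 6, 3 and 3 had counts in cLCs replicates 1 to 4, against all 9 in each T cell library. They summed to 664, 2350, 1050 and 437 CPM in cLCs, against 1660 to 2820 CPM in T cells. The kinase gene zap70 and the coreceptor gene cd28 had 0 counts in every cLC library, against 372 to 504 and 16.8 to 40.7 CPM in T cells. In cLCs lck was at 19.7, 21.4, 0.469 and 0 CPM, against 581 to 685 CPM in T cells. The listed il7r and tcf7 reached at most 4.63 and 0.215 CPM in cLCs, against 193 to 508 and 16.7 to 491 CPM in T cells. The kinase gene itk was at 0, 0, 0 and 91.2 CPM in cLCs, against 141 to 199 CPM in T cells. Most of the sum in cLCs came from cd4-1 (256 to 959 CPM) and cd8a (88.9 to 1350 CPM). In T cells these were at 77.1 to 165 and 121 to 275 CPM. T cell markers summed to at most 38.2 CPM in MLCs, 12.5 CPM in keratinocytes and 26.4 CPM in neutrophils. The list holds cd3eap, which may not mark T cells, and without it these sums were at most 33.4, 6.06 and 26.4 CPM, against 437 to 2330 CPM in cLCs and 1640 to 2780 CPM in T cells. Neutrophil markers summed to at most 618 CPM in T cells.

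The highest levels of tnfrsf11b (ENSDARG00000098377) were in MLCs. It encodes osteoprotegerin, in mammals a secreted decoy that binds the ligand RANKL and keeps it from its receptor RANK. The gene stood at 227, 819, 244 and 118 CPM in MLCs (352 ± 316 CPM) and at 28.4, 39.9, 0 and 0 CPM in cLCs. Keratinocytes had 3.83, 0 and 0 CPM, T cells 0.101, 0 and 0 CPM, and neutrophils 0 counts in every library. All 4 MLC libraries lay above all 13 others.

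The gene differed among the 5 groups (edgeR adjusted p = 0.00435, and 0.000797 to 0.023 with 1 library left out). In pairs it was at least 7488-fold higher in MLCs than in neutrophils (adjusted p = 0.0384). It was not called against T cells (adjusted p = 0.0789), keratinocytes (276-fold, adjusted p = 0.176) or cLCs (20.6-fold, adjusted p = 0.408). The call was lost without any MLC library, any neutrophil library or cLCs replicates 1 or 2 (adjusted p up to 0.13), and without the 4 libraries under 6000 detected genes (0.11). The MLC libraries also held 3160 to 7010 CPM of keratinocyte markers. The keratinocyte libraries held 33400 CPM or more of them and at most 3.83 CPM of tnfrsf11b, and the part of keratinocyte RNA in the MLC values was not tested.

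Of the other genes of this triplet, the receptor was also read in every MLC library, whereas the ligand lay mainly in other groups. The receptor gene tnfrsf11a (RANK) stood at 29.0, 16.8, 44.8 and 74.6 CPM in MLCs, at 147, 0.108, 26.4 and 0 CPM in cLCs, and at 209, 33.8 and 0 CPM in neutrophils. It had 0 counts in keratinocytes and at most 1.98 CPM in T cells. The ligand gene tnfsf11 (RANKL) was read mainly in keratinocytes and T cells, at 23.31, 0.13 and 4.97 CPM in keratinocytes and 0, 23.5 and 23.8 CPM in T cells. MLCs and neutrophils had 0 counts of it and cLCs at most 0.386 CPM. The ligand differed among the groups (edgeR adjusted p = 0.0484), a call that was lost by leaving out any 1 library other than T cells replicate 1 (adjusted p up to 0.0842). The receptor was not called (edgeR adjusted p = 0.145 for MLCs against keratinocytes), and no pair of groups was called for either gene.

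**Figure D3:**
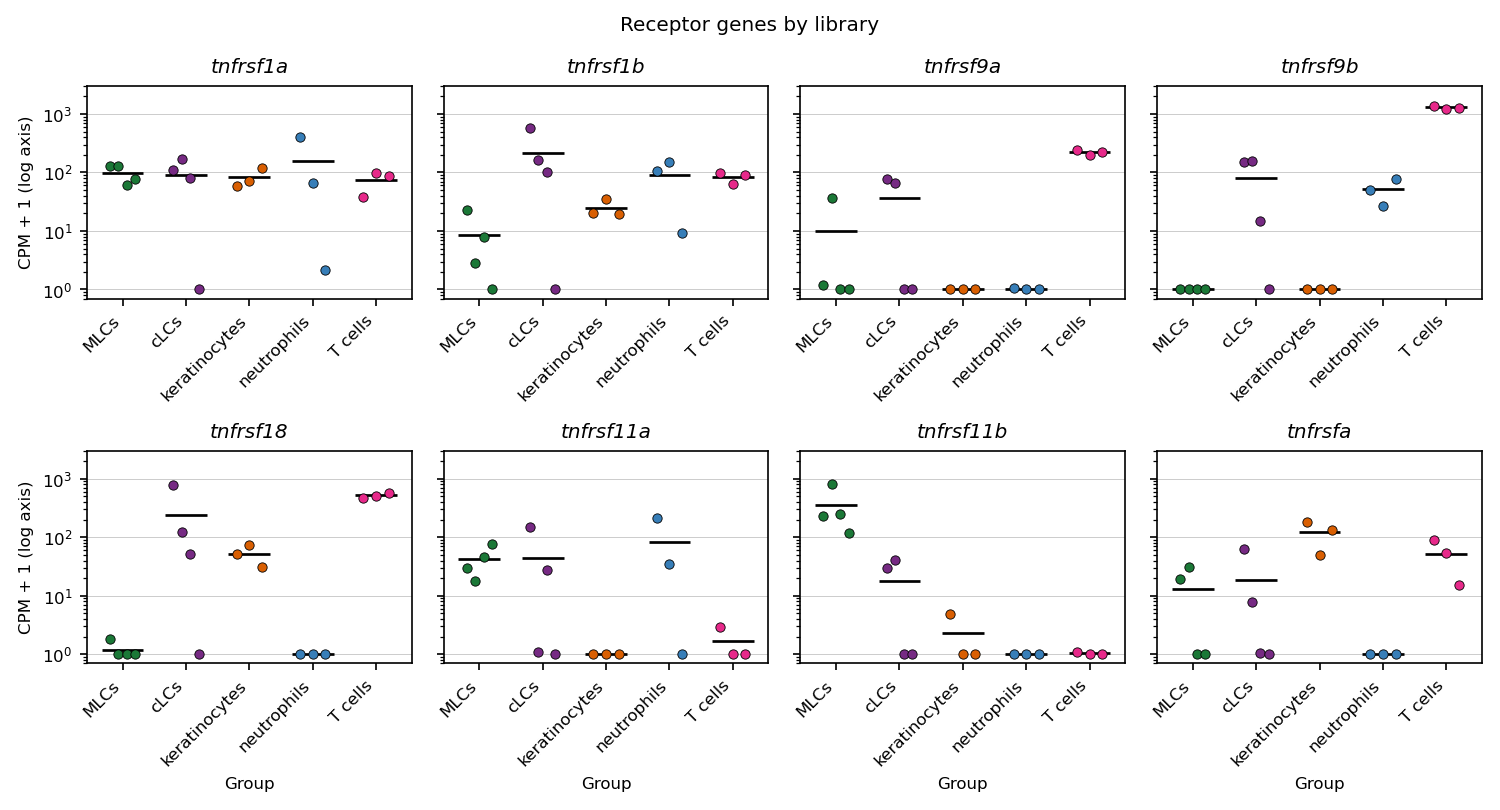
Levels of 8 receptor genes in each group, as CPM + 1 on a log axis; each point is a library and each black line the group mean plus 1. The 3 T cell points of tnfrsf9b lie between 1225 and 1356 CPM above all others, and the 4 MLC points of tnfrsf11b between 118 and 819 CPM above all others.

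The receptor genes for TNF itself were read in all 5 groups. The gene tnfrsf1a (ENSDARG00000018569), whose mammalian counterpart TNFR1 is the widely expressed receptor with a death domain, was read in every library but cLCs replicate 4. It stood at 126, 128, 59.2 and 75.4 CPM in MLCs, at 108, 168, 78.4 and 0 CPM in cLCs, and at 57.5, 70.4 and 118 CPM in keratinocytes. Neutrophils had 398, 65.9 and 1.16 CPM and T cells 37.0, 96.7 and 86.4 CPM. All 5 groups overlapped, and no pair was called by edgeR.

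The gene tnfrsf1b (ENSDARG00000070165), in mammals a TNF receptor without a death domain found mainly on leukocytes, had its smallest mean in MLCs. It stood at 21.5, 1.82, 6.78 and 0 CPM in MLCs, at 584, 161, 99.2 and 0 CPM in cLCs, and at 19.4, 33.8 and 18.3 CPM in keratinocytes. Neutrophils had 104, 151 and 8.3 CPM and T cells 97.5, 62.3 and 89.6 CPM. MLCs lay below T cells without overlap (7.51 ± 9.72 against 83.1 ± 18.5 CPM), which was not called (edgeR adjusted p = 0.409), and against cLCs the adjusted p was 0.31. Keratinocytes, which had almost no tnfa or tnfb, thus had counts for both TNF receptor genes in all 3 libraries.

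Keratinocytes had the highest mean of tnfrsfa (ENSDARG00000004451), at 179, 48.8 and 134 CPM. It stood at 87.5, 51.9 and 14.4 CPM in T cells, 63.3, 6.89, 0.0521 and 0 CPM in cLCs and 18.3, 29.9, 0 and 0 CPM in MLCs, with 0 counts in neutrophils. Keratinocytes were above MLCs and neutrophils without overlap. They were at least 2563-fold above neutrophils (edgeR adjusted p = 0.049). That call was lost in 13 of the 17 fits with 1 library left out, namely without MLCs replicates 1 or 2, cLCs replicates 1 or 2, or any keratinocyte, neutrophil or T cell library (adjusted p up to 0.136), and without the 4 libraries under 6000 detected genes (0.17). The receptor gene tnfrsf21 (DR6 in mammals) stood at 34.6, 23.2, 11.2 and 30.3 CPM in MLCs, at most 41.5 CPM in cLCs and 2.6 CPM in keratinocytes, with 0 counts in neutrophils and T cells (edgeR adjusted p = 0.0587 among the groups).

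Per length, the receptor genes summed to 3110 to 3410 TPM in T cells, and to 143 to 525 TPM in MLCs, 0 to 1370 in cLCs, 147 to 267 in keratinocytes and 109 to 465 in neutrophils. The leading gene of T cells was tnfrsf9b, with 57.2% to 59.9% of the receptor TPM, and that of MLCs was tnfrsf11b, with 48.5% to 78.4%. In the other groups the leading gene changed between libraries. Ligand genes summed to 354 to 2080 TPM in cLCs, 144 to 225 in MLCs, 104 to 1180 in neutrophils, 161 to 195 in T cells and 20.9 to 86.7 in keratinocytes. The leading ligand was tnfb in all 14 libraries outside keratinocytes, with 36.3% to 100% of the ligand TPM, and tnfsf10l in all 3 keratinocyte libraries, with 46.5% to 73.2%.

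**Figure D4:**
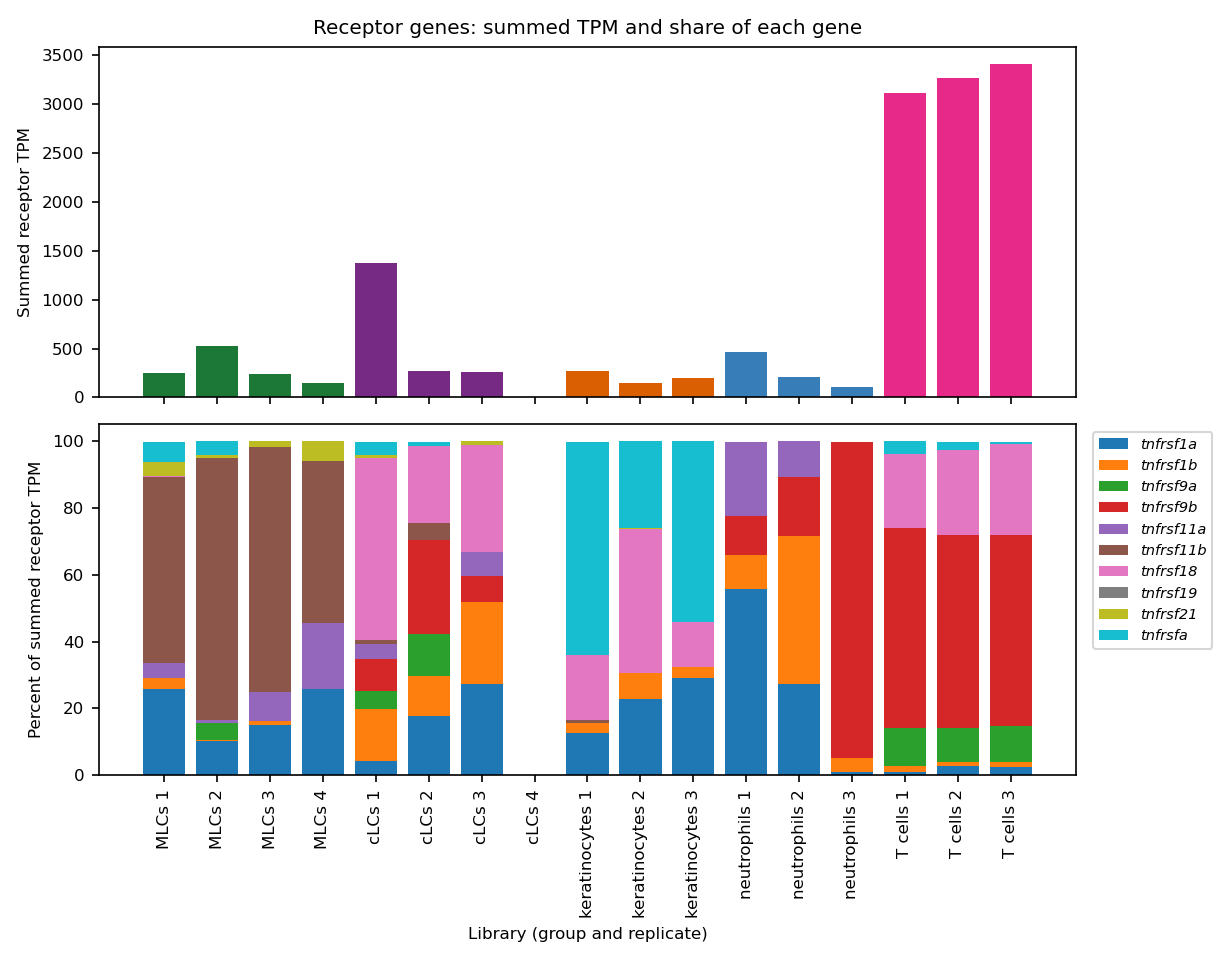
Top, summed TPM of the 10 receptor genes in each library; bottom, the percent of that sum held by each gene. T cell libraries stand at 3110 to 3410 TPM with tnfrsf9b as the largest share, MLC libraries have tnfrsf11b as theirs, and cLCs replicate 4 is empty because all its receptor genes had 0 counts.

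None of the 9 TRAF genes was called in any pair of groups. The adaptor traf6, which serves Toll-like and interleukin receptors as well as RANK, was at 65.0 to 92.0 CPM in MLCs, 19.3 to 92.2 in cLCs and 43.2 to 56.1 in T cells. Keratinocytes had 50.7, 1.04 and 0 CPM of it and neutrophils 28.1, 0 and 0 CPM. For traf2b the ranges were 18.9 to 42.8 CPM in MLCs, 0 to 37.8 in cLCs, 22.8 to 34.6 in keratinocytes, 60.7 to 88.9 in neutrophils and 72.2 to 99.2 in T cells. T cells and neutrophils both lay above MLCs, cLCs and keratinocytes without overlap. For T cells the edgeR adjusted p values were 0.941, 0.67 and 0.779, and for neutrophils against MLCs 0.805. For traf3, which restrains the alternative NF-kappaB pathway, MLCs had 32.4 to 144.5 CPM and T cells 36.5 to 71.3 CPM.

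The genes traf1 and traf5 were highest in T cells. In mammals traf1 is induced by NF-kappaB and binds receptors such as TNFRSF9. It stood at 103, 39.7 and 56.1 CPM in T cells and at most 13.7 CPM in any other library, and traf5 at 42.0, 36.5 and 66.8 CPM in T cells and at most 26.6 CPM elsewhere. T cells lay above every other library for both genes. Neither was called in a pair (edgeR adjusted p = 0.227 for traf1 against neutrophils and 0.0913 for traf5 against keratinocytes). The paralogs traf4a and traf4b, whose mammalian counterpart is known from epithelia, reached 71.5 CPM (MLCs replicate 3) and 61.4 CPM (keratinocytes replicate 1). Both had counts in 3 of 4 MLC libraries. In neutrophils they had at most 0.0421 CPM, and in T cells traf4a had at most 0.608 CPM and traf4b at most 0.152 CPM. For traf7 the highest library was neutrophils replicate 1 at 19.0 CPM, and traf2a and traf3ip1 had group means below 10 CPM throughout.

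The gene traf3ip2l (ENSDARG00000091734) resembles mammalian TRAF3IP2, also called Act1, the adaptor of IL17 receptors. It stood at 262.5, 44.4 and 66.2 CPM in keratinocytes and at 128.5, 32.4 and 56.3 CPM in T cells, and these groups overlapped. MLCs had 18.5, 34.1, 6.78 and 0 CPM, cLCs 0, 0.646, 0 and 0 CPM, and neutrophils 0 counts in every library. Keratinocytes were 769.5-fold above cLCs (edgeR adjusted p = 0.0492) and at least 2644-fold above neutrophils (adjusted p = 0.0227). The first call was lost in 12 of the 17 fits with 1 library left out, that is without MLCs replicates 1, 2 or 3, cLCs replicates 1, 3 or 4, or any keratinocyte or T cell library (adjusted p up to 0.163). The second was lost without keratinocytes replicate 1 or any neutrophil library (adjusted p up to 0.0798). Without the 4 libraries under 6000 detected genes the adjusted p values were 0.0712 and 0.106.

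Counted over all tested genes of the family, 9 of 27 differed among the 5 groups by edgeR, where 16.0% of all 15247 tested genes did. They are tnfrsf9b, tnfb, tnfrsf18, tnfrsf11b, tnfsf10l, traf3ip2l, tnfrsf9a, tnfsf12 and tnfsf11. A gene read in 1 group only passes the filter through that group, so the share among the tested members is no property of the family. In the 10 pairs 7 genes gave 19 calls, of which 9 were kept whichever library was left out and 10 were lost in at least 1 such fit. All 9 kept calls belong to tnfb (4) and tnfrsf9b (5).

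By pair, 6 of the 27 were called between keratinocytes and neutrophils (4.85% of all tested genes were), 3 between keratinocytes and T cells (3.33%), and 3 between cLCs and keratinocytes (3.37%). There were 2 between MLCs and T cells (1.21%), 2 between MLCs and neutrophils (1.90%), 1 between MLCs and keratinocytes (1.91%), 1 between MLCs and cLCs (0.171%) and 1 between cLCs and neutrophils (0.859%). Without any one neutrophil library the first count became 2, and without keratinocytes replicate 1 it became 3. The count for MLCs against cLCs became 0 without any MLC library or cLCs replicate 1, and 2 without cLCs replicate 4. For MLCs against keratinocytes it became 2 without MLCs replicate 1 or cLCs replicate 4. For MLCs against neutrophils it became 1 without any MLC library, any neutrophil library or cLCs replicates 1 or 2. For MLCs against T cells it became 1 without MLCs replicates 2, 3 or 4 or any T cell library. For cLCs against neutrophils it became 0 without cLCs replicates 1 or 2 or any neutrophil library, and 2 without cLCs replicate 4. In other fits with 1 library left out, the count rose to at most 7 for keratinocytes against neutrophils. It rose to at most 3 for MLCs against neutrophils and for MLCs against T cells.

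No gene of the family was called between cLCs and T cells by edgeR (0.203% of all tested genes were), although 9 fell under 0.05 before adjustment, and DESeq2 called 6 (8.24% of all genes) and limma on TPM 9 (14.9%). Between neutrophils and T cells edgeR also called 0 (0.105% of all), and 1 without cLCs replicate 4, although 9 fell under 0.05 before adjustment, and DESeq2 called 8 (14.4% of all genes) and limma 6 (11.7%).

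Some genes lay higher in every library of one group than in every library of the other. Between neutrophils and T cells 8 of the 27 genes were higher in T cells in this sense, as were 17.4% of all tested genes, and 0 higher in neutrophils (3.79%). The 8 were tnfrsf18, traf3ip2l, tnfrsfa, tnfrsf9a, traf1, tnfrsf9b, traf6 and traf5. Between cLCs and T cells 6 lay higher in T cells without overlap (11.4% of all) and 1, tnfb, higher in cLCs (3.99%). For MLCs against T cells the counts were 5 higher in MLCs (11.0%) and 7 higher in T cells (11.9%), and for keratinocytes against T cells 3 higher in keratinocytes (13.3%) and 8 higher in T cells (17.7%). For MLCs against keratinocytes they were 6 (12.0%) and 5 (10.1%), for MLCs against neutrophils 3 (13.4%) and 2 (3.00%), and for MLCs against cLCs 1 (7.80%) and 0 (2.55%), with the first-named group's count first. For cLCs against keratinocytes they were 1 (4.77%) and 2 (11.0%), for cLCs against neutrophils 1 (3.91%) and 1 (2.26%), and for keratinocytes against neutrophils 6 (15.9%) and 3 (5.38%). The gene higher in cLCs than in neutrophils was tnfa, which had 1 read in cLCs replicate 3.

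The median log2 difference over the 27 genes was 3.71 for MLCs against neutrophils and 4.28 for cLCs against neutrophils, with means at 0 raised to 3 counts, against 0.95 and 0.78 over all tested genes. A gene at 0 in neutrophils was tested only through the groups where it was read, and neutrophils replicates 2 and 3 had low detection. Genes at 0 in keratinocytes, T cells or MLCs were likewise tested only through other groups. Neither these medians nor those that follow are therefore a property of the family. For MLCs against cLCs the median was -0.32 against 0.11, and for MLCs against keratinocytes 0.25 against 0.21. It was 0.69 against -0.07 for MLCs against T cells, 1.34 against -0.06 for cLCs against T cells, and 2.21 against 0.16 for cLCs against keratinocytes. Keratinocytes gave -0.73 against -0.36 over T cells. For neutrophils against T cells the order depended on the treatment of means at 0, with -0.16 against -0.69 when raised to 3 counts and -2.06 against -0.87 as fitted. For keratinocytes against neutrophils the size depended on that treatment, with 1.1 against 0.77 when raised to 3 counts and 2.60 against 0.17 as fitted.

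Other ligands and receptors of the superfamily have symbols outside the choice above, and 14 of a list of 17 matched the tables. Of the 10 tested, 4 differed among the groups by edgeR (16.0% of all tested genes did) and none was called in a pair. These 4 genes were read mainly in T cells and passed the filter on low counts through that group. Their share among the tested genes is therefore no property of the list. The death ligand gene faslg was at 39.3 to 88.4 CPM in T cells (67.2 ± 25.2 CPM) with 0 counts in the other 14 libraries (adjusted p = 0.00669). The helper ligand gene cd40lg was at 57.8 to 84.4 CPM in T cells and at most 5.35 CPM elsewhere (adjusted p = 0.0166), and cd27, a costimulatory receptor gene, at 3.5 to 27.7 CPM in T cells and at most 1.74 CPM elsewhere (adjusted p = 0.0412). The fourth, si:ch73-361p23.3, has a placeholder name. The receptor gene cd40, partner of cd40lg, had means of 85.8 CPM in cLCs and 47.9 CPM in MLCs. Its means were 20.2 CPM in neutrophils, 18.1 CPM in keratinocytes and 7.59 CPM in T cells. It was not called among the groups (edgeR adjusted p = 0.387).

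Of 15 tested adaptor and death signalling genes, casp3a and ripk3 were higher in MLCs, cLCs and neutrophils than in keratinocytes, and ripk3 higher in T cells than in keratinocytes. These pairs had 1.91%, 3.37%, 4.85% and 3.33% of all tested genes called, and none of the 15 passed the threshold among the 5 groups (edgeR adjusted p = 0.0564 for ripk3 and 0.0556 for casp3a). The cell death kinase gene ripk3 stood at 85.5 ± 34.5 CPM in MLCs, 73.8 ± 89.5 in cLCs, 82.1 ± 72.5 in neutrophils and 35.4 ± 38.6 in T cells, against 0.0170 ± 0.0294 CPM in keratinocytes (edgeR adjusted p of 0.0213 to 0.0381). Of 25 kinase and ubiquitin genes, the deubiquitinase gene cyldb was higher in keratinocytes than in cLCs (364 ± 214 CPM against 0 counts, edgeR adjusted p = 0.0413). Also, ube2d3 was higher in keratinocytes than in neutrophils. Of all tested genes, 3.37% and 4.85% were called in these pairs. In neutrophils cyldb was also at 0 in every library, and its means were 4.92 CPM in MLCs and 5.96 CPM in T cells. Of 17 NF-kappaB factor and inhibitor genes, tnfaip8l2a, a relative of a mammalian brake on immune cells, had 0 counts in keratinocytes. It was higher in MLCs (131 ± 27.3 CPM, edgeR adjusted p = 0.0102), cLCs (54.5 ± 42.9, 0.0109), neutrophils (185 ± 58.9, 0.00593) and T cells (76.2 ± 55.9, 0.0102). It was the only one of the 17 called in these pairs, where 1.91%, 3.37%, 4.85% and 3.33% of all tested genes were. Among the 5 groups 2 of the 17 passed the threshold, as did 16.0% of all tested genes. One was nfkbiaa, an NF-kappaB inhibitor gene (edgeR adjusted p = 0.0174). Its means were 1806 CPM in cLCs, 882.5 in neutrophils, 413 in T cells, 216 in MLCs and 213 in keratinocytes.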

How the data were processed

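The deposited counts are raw reads per Ensembl gene, and the deposited TPM are per length and library, as made by the authors. STAR, featureCounts and danRer10 are named per the submitters' processing notes. Versions, annotation release and strand setting are not stated in what was used here, so reads of overlapping genes cannot be told apart. Each table holds 35572 lines for 35117 identifiers, and each identifier was used once.

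In R 4.3.3, edgeR 4.0.16 scaled the counts by TMM and kept 15247 genes by its group-based low-count filter. One quasi-likelihood model with a mean per group covered the 17 libraries (biological coefficient of variation 2.03, 12 residual and 10.7 prior degrees of freedom). The 10 pairs and the difference among 5 groups were tested, with Benjamini-Hochberg adjustment over every tested gene and a threshold of 0.05. A floor is 3 counts over a group (0.047 to 0.0803 CPM). Folds are ratios of group mean CPM, with the floor in place of a mean at 0, and are not edgeR's fitted differences. Floors and bounds cover counting error only, since amplified reads carry no molecular identifiers.

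Genes were given library by library if called in a pair, if a group mean reached 100 CPM, or as tnfa and tnfb, and by range from a mean of 10 CPM. Library values of tnfsf10, tnfsf11, tnfsf12, tnfrsf11a, tnfrsf21, traf1, traf5 and traf6, and the pathway genes faslg, cd40lg, cd27, cd40, casp3a, ripk3, ube2d3 and nfkbiaa, were picked after their values were seen. Members and lists were chosen with earlier results of these data known. The fits were also run on simulated counts with known changes in T cells only. These did not model the 4 libraries with low detection, their outcome is not given here, and no result rests on them. Alternatives were RLE scaling, DESeq2 1.42.0, an unfiltered fit, limma 3.58.1 on log2(TPM + 1) over genes reaching 1 TPM in 3 libraries, a replicate block and leave-one-out fits. A fit without the 4 libraries under 6000 detected genes was added after seeing the data.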

Additional observations from a re-analysis of the deposited data

Results flagged for a closer look

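In 6 of 21 sets of 4 libraries, 1 library stood far from the other 3, a pattern that chance alone also gives in a small share of such sets. Where the other 3 were at 0, any count gives this pattern. Examples are the 4 reads of tnfrsf18 in MLCs replicate 1 and the 6 reads of traf3ip2l in cLCs replicate 2. In MLCs, tnfa in replicate 1 was at 26.8 CPM with 0 in the others, tnfrsf18 in replicate 1 at 0.794 CPM with 0 in the others, and tnfrsf9a in replicate 2 at 35.0 CPM with at most 0.199 CPM in the others. In cLCs, tnfrsf18 in replicate 1 was at 793 CPM with at most 121 CPM in the others, tnfrsfa in replicate 1 at 63.3 CPM with at most 6.89 CPM in the others, and traf3ip2l in replicate 2 at 0.646 CPM with 0 in the others.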

How the results depend on the processing

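The share of all tested genes called in the same fit stands in brackets beside each count of members. Unfiltered, 30 members were tested, and 28 without the 4 libraries under 6000 detected genes. The other fits of all 17 libraries tested 27. RLE scaling changed no count of members, though it moved the median log2 difference of all genes by up to 0.26. Among the 5 groups the count was 9 (16.0%), against 11 (21.3%) by DESeq2, 14 (16.2%) unfiltered, 14 (31.4%) by limma and 15 (20.1%) with the replicate block. DESeq2 called 3 for MLCs against cLCs (7.81%), 8 for MLCs against keratinocytes (15.0%), 12 for MLCs against neutrophils (19.6%), 7 for MLCs against T cells (10.4%), 7 for cLCs against keratinocytes (19.7%), 11 for cLCs against neutrophils (15.8%), 6 for cLCs against T cells (8.24%), 17 for keratinocytes against neutrophils (27.6%), 9 for keratinocytes against T cells (20.2%) and 8 for neutrophils against T cells (14.4%). Limma called 4 for MLCs against cLCs (8.40%), 7 for MLCs against keratinocytes (12.6%), 8 for MLCs against T cells (13.8%), 2 for cLCs against neutrophils (4.81%), 9 for cLCs against T cells (14.9%), 6 for keratinocytes against T cells (20.7%) and 6 for neutrophils against T cells (11.7%). Unfiltered, the counts were 2 for MLCs against cLCs (1.27%), 5 for MLCs against keratinocytes (2.51%), 4 for MLCs against neutrophils (2.66%), 6 for cLCs against keratinocytes (3.74%), 7 for cLCs against neutrophils (1.92%), 3 for cLCs against T cells (1.44%) and 4 for neutrophils against T cells (0.912%). Without the 4 libraries under 6000 detected genes they were 2 for MLCs against cLCs (0.788%), 6 for MLCs against keratinocytes (5.37%), 1 for MLCs against neutrophils (0.943%), 5 for cLCs against keratinocytes (5.10%), 0 for cLCs against neutrophils (0.0100%), 2 for cLCs against T cells (2.29%) and 5 for keratinocytes against T cells (8.30%), and 13 of the 19 calls were kept. With the replicate block they were 2 for MLCs against cLCs (1.79%), 4 for MLCs against keratinocytes (3.59%), 5 for cLCs against neutrophils (2.45%), 1 for cLCs against T cells (1.86%) and 4 for neutrophils against T cells (1.40%), and 18 of the 19 calls were kept; traf3ip2l between cLCs and keratinocytes was not (edgeR adjusted p = 0.0742). The cause of these moves was not tested. Over all groups, the deviations of same-numbered libraries had a median correlation of 0.0102 (31 pairs), and the numbers were not taken as pairs. The 2 pairs over 0.1 were MLCs with cLCs, in replicates 1 (0.176) and 2 (0.105). In replicates 3 and 4 these groups had 0.0323 and 0.0434, and their differently numbered pairs lay at -0.101 to 0.0493. A pairing of MLCs with cLCs by number was not tested apart from the replicate block. With 1 library left out, the counts ranged from 7 to 9 among the groups, 0 to 2 for MLCs against cLCs, 1 to 2 for MLCs against keratinocytes, 1 to 3 for MLCs against neutrophils, 1 to 3 for MLCs against T cells, 2 to 3 for cLCs against keratinocytes, 0 to 2 for cLCs against neutrophils, 0 to 0 for cLCs against T cells, 2 to 7 for keratinocytes against neutrophils, 2 to 4 for keratinocytes against T cells and 0 to 1 for neutrophils against T cells. No called difference turned its direction in any of these fits. Low detection in 4 libraries limits what a count of 0 shows there.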
